A study of Mus musculus with 15 samples.

Results

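The comparison described here sets 5 RNA-seq libraries from residual basal cell carcinoma nests of mice treated with vismodegib for 28 days against 5 libraries from untreated nests labelled Ki67-positive. The 10 libraries were chosen by their titles, out of 15 in the series; the remaining 5 are untreated nests labelled Ki67-negative, which entered the model to help estimate the spread and are given below only as a reference. All mice carried the same labelled genotype, K14Cre-ER, Ptch1 fl/fl, p53 fl/fl and Lgr5GFP, so the Cre recombinase, active only with tamoxifen, was driven by the keratin 14 promoter, and deletion of Ptch1 and p53 was shared by treated and control tumours. Nests were cut by laser from fresh frozen skin, and polyadenylated RNA was sequenced. The labels give no age, animal, sex or batch, so it is not known whether libraries share a mouse; p-values therefore measure the spread between these libraries, which may in part be technical. Libraries are numbered 1 to 5 within a group in the order of their accessions, and the numbers pair nothing. Ki67 status is labelled on untreated nests only, so the treated nests are not known to be matched to the Ki67-positive ones in that respect.

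Basal cell carcinoma arises when Hedgehog signalling runs without its brake. The receptor Patched, encoded by Ptch1, normally holds back Smoothened, a membrane protein that acts at the primary cilium to turn on the GLI transcription factors; vismodegib binds Smoothened and blocks it. In normal skin, basal keratinocytes rest on a basement membrane, divide, and on leaving it pass through a programme of keratin, desmosome, lipid and protease expression that builds the barrier, while hair follicle keratinocytes follow other programmes set by patterning factors such as Lhx2 and Sox9. The genes of the Hedgehog pathway and of the cornified envelope are the best known readouts of such tumours and their treatment, and the account below turns to the other functional classes.

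Library size did not separate the groups. The treated libraries held 6413055 to 10328822 counts and the Ki67-positive libraries 4929869 to 8359195 (exact permutation test, two-sided, p = 0.246). Counts from genes of the mitochondrial genome were 2.18% to 2.78% of a treated library and 0.955% to 1.58% of a Ki67-positive one, and cytoplasmic ribosomal protein genes took 0.795% to 1.17% against 0.347% to 0.552%. For each share the groups did not overlap, and the exact permutation p was 0.00794, the smallest that 5 against 5 allows (0.0198 adjusted over 5 library measures). The Xist count exceeded the Ddx3y count in treated libraries 1, 2 and 3 and in Ki67-positive library 5, so that female tissue was not evenly spread over the groups. With a term for it, 2181 genes were called higher and 2268 lower, against the 2186 and 2311 given below. The 2 fits shared 1967 of the higher and 2025 of the lower calls, so some calls changed with this term. Fold changes also moved with the length of the gene model: the median log2 fold change was 0.127 in the shortest of 5 equal bins of genes and -0.108 in the longest. The part of library composition and length in the results below was not tested except where a value is given.

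**Figure D1:**
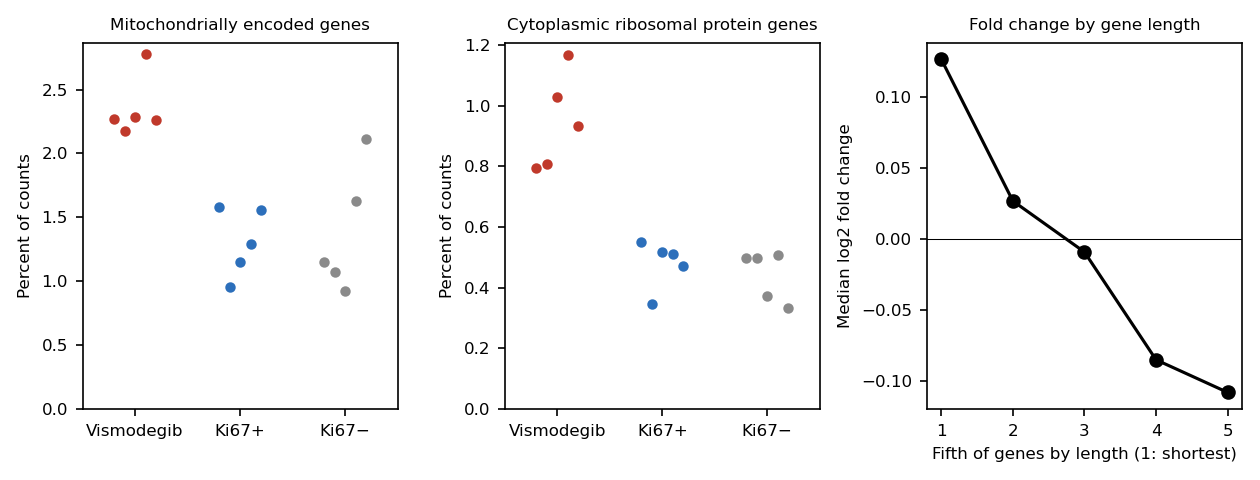
Library composition and gene length. The plots show the percent of each library's counts in genes of the mitochondrial genome and in cytoplasmic ribosomal protein genes (one point per library, by group), and the median log2 fold change of vismodegib over Ki67-positive nests in 5 bins of gene model length; the treated libraries lie above all Ki67-positive libraries for both shares, and the medians run from 0.127 in the shortest bin to -0.108 in the longest.

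The labelled tissue was checked against marker genes. Keratinocyte and tumour nest markers were abundant in every library, with summed levels of 24420 to 27670 CPM (counts scaled by library size and edgeR's normalization factor) in the treated nests and 13260 to 15370 CPM in the Ki67-positive nests. Of the 15 nest markers, 8 were called higher and 3 lower. The transcription factor Trp63, which marks stratified epithelium, was measured at 1291 to 1552 CPM after vismodegib against 1106 to 1497 CPM in the Ki67-positive libraries, and the stem cell receptor Lgr5 at 341 to 882 CPM after vismodegib against 490.5 to 742 CPM in the Ki67-positive libraries; neither was called, and their ranges overlapped. Suprabasal epidermis markers summed to 4044 to 6475 CPM against 450.5 to 1336 CPM, and 10 of 12 were called higher. Langerhans and dendritic cell markers summed to 808.8 to 2483 CPM against 184.8 to 562.1 CPM, with 8 of 11 tested markers higher. Pericyte and smooth muscle markers went the other way, at 138.4 to 261.0 CPM against 611.9 to 982.3 CPM, with 5 of 8 tested markers lower. Most of that fall came from Cspg4 (median 67.9 against 371.4 CPM) and Mcam (median 11.7 against 117.8 CPM), while Rgs5, Myh11 and Notch3 were not called. Melanocyte markers fell too, with 6 of 9 lower, and so did fibroblast markers, with 6 of 15 lower. The Merkel cell sum was lower, at 4.14 to 10.2 CPM against 28.8 to 102 CPM, almost wholly through Piezo2, a mechanosensitive channel, at 0.630 to 7.64 CPM against 26.4 to 98.4 CPM. Of the other Merkel cell markers Syp was not called, and Krt20, Atoh1, Isl1, Sox2 and Chga were too low to be tested. Endothelial markers overlapped between the groups, and B cell markers summed to at most 3.65 CPM in any treated library. Skeletal muscle markers reached 200.6 CPM in 1 treated library and at most 7.40 CPM in the Ki67-positive ones. In bulk RNA from cut nests, a change in the number of cells of a type and a change in RNA per cell cannot be told apart, and this holds for every class below.

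**Figure D2:**
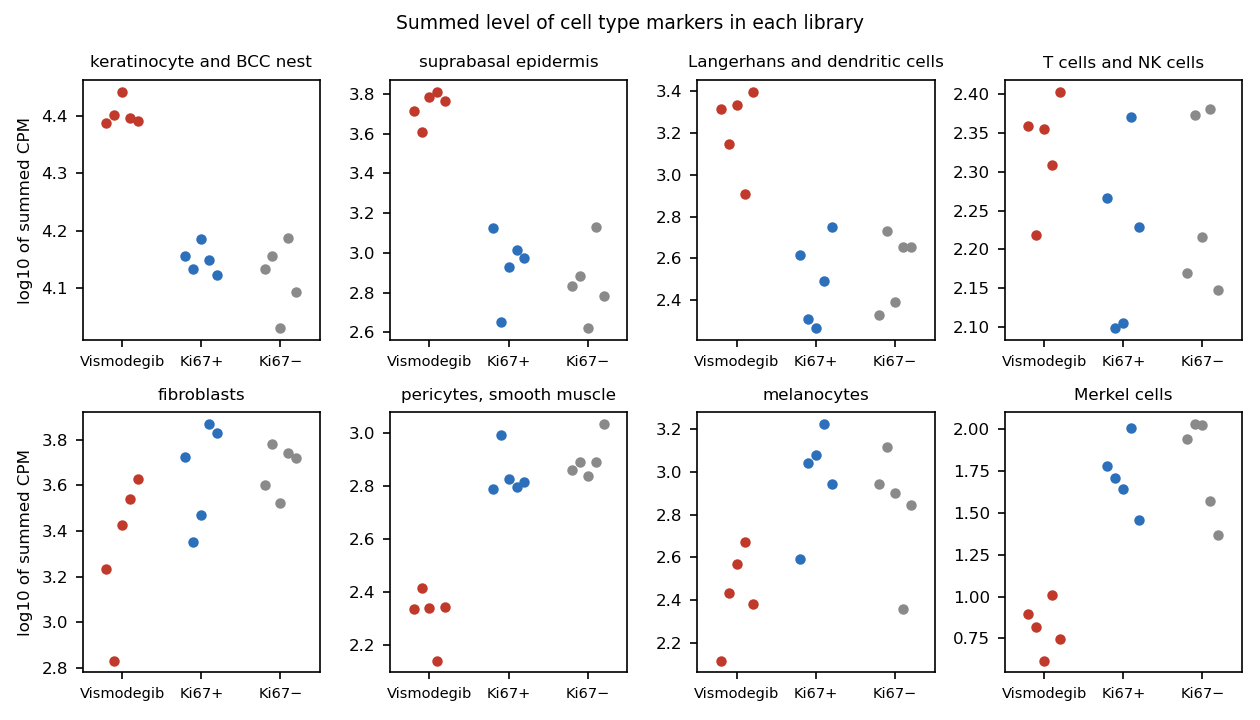
Summed level of 8 marker lists in every library, on a log axis in CPM, with 1 point per library and the 3 groups side by side. Suprabasal, nest and Langerhans or dendritic cell markers lie higher in all 5 treated libraries than in all 5 Ki67-positive ones. The sums of pericyte and Merkel cell markers lie lower, the former mostly through Cspg4 and Mcam and the latter almost wholly through 1 gene, Piezo2. Fibroblast and melanocyte markers overlap between the groups.

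Gene by gene, the treated and Ki67-positive nests differed widely. Of 17282 genes tested with edgeR's quasi-likelihood test, 4497, or 26.0%, were called at an adjusted p below 0.05; 2186 (12.6%) were higher after vismodegib and 2311 (13.4%) lower. Changes of more than 4-fold were called for 561 genes upward and 696 downward. For 3500 genes (20.3%) all 5 treated libraries lay on one side of all 5 Ki67-positive libraries, 1758 (10.2%) above and 1742 (10.1%) below. Between the untreated groups, Ki67-negative against Ki67-positive, 30 genes (0.174%) were called, all of them lower in the Ki67-negative nests. The median log2 fold change over all genes tested was -0.02, and class medians below are to be read against it. In what follows, the treated libraries come first wherever values are set against each other, and the log2 change is the log2 fold change of treated over Ki67-positive nests ± its standard error. Values listed singly are libraries 1 to 5 in order. Genes were placed in 88 functional classes by symbol, 84 of them outside the Hedgehog, cornified envelope, keratin and S100 groups. A class is described by the number of its tested members called each way. A class with about 12.6% of its members higher and 13.4% lower does not stand apart from the table as a whole. Members that passed the count filter in only 1 group were bound to differ, so these counts describe the classes and are no test of them.

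**Figure D3:**
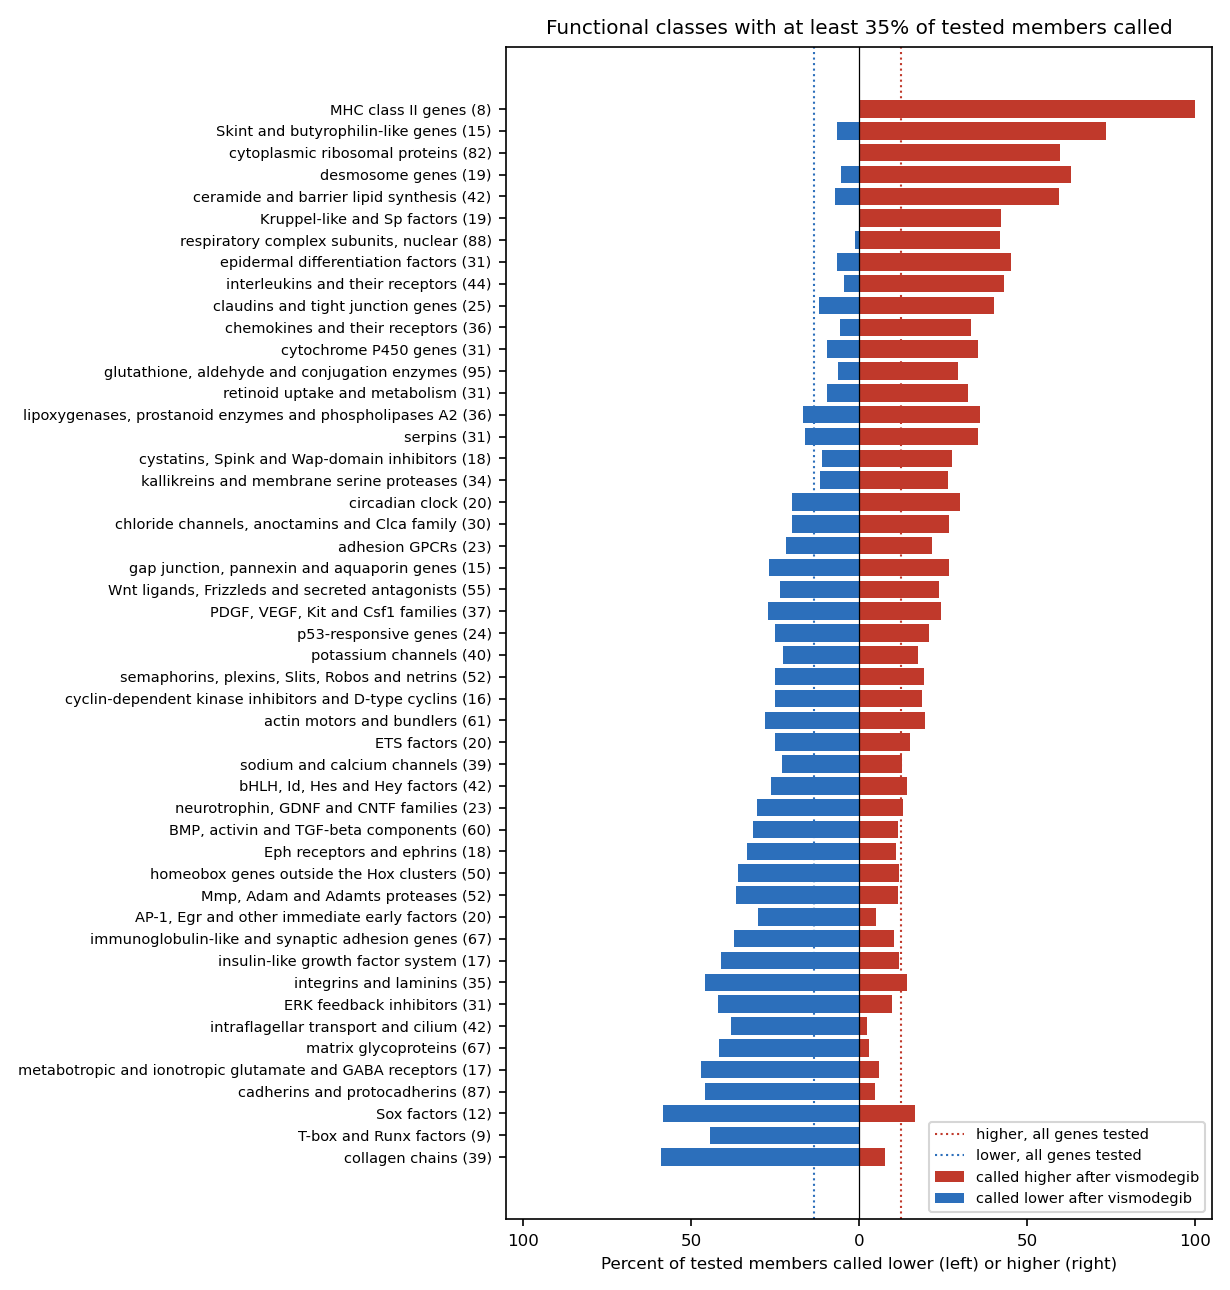
Functional classes in which at least 35% of at least 8 tested members were called, with 1 such class not shown. Bars give the percent of tested members called lower (left) or higher (right) after vismodegib, the number tested stands in brackets, and dotted lines mark the 12.6% and 13.4% of all genes tested; MHC class II, Skint, desmosome, cytoplasmic ribosomal protein and barrier lipid classes reach furthest to the right, and collagen chains and Sox factors furthest to the left, followed by glutamate and GABA receptors.

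Because vismodegib acts upstream of the GLI factors, promoters of the tested genes were searched for the GLI recognition letters GACCACCCA on both strands, in windows from 250 bases before to 50 bases after each transcript start listed by RefSeq on GRCm38.p6. The letters occurred in 10 of 2049 promoters of genes called lower (0.49%) and in 2 of 2099 promoters of genes called higher (0.10%), against 30 of 15619 promoters of all genes tested (0.19%) and 83 of 32851 promoters overall (0.25%). The higher pair were Slc35f5 and Sh3kbp1. Among the lower genes were Cltb, which encodes a clathrin light chain, Magi3, a scaffold protein of cell junctions, and Gnb1l. These 3 stretches, chosen after their values were seen, are shown because each lies at a gene that fell; the motif is in capitals with 10 bases either side, and each is read 5′ to 3′ on the gene's strand.
Cltb, chr13:54611411-54611439, minus strand: agggcggggcGACCACCCAgccccgcggg
Magi3, chr3:104220570-104220598, minus strand: cctctacttaGACCACCCAatcagaaatc
Gnb1l, chr16:18498641-18498669, plus strand: tgggacccagGACCACCCAgcacctgcgc
The motif began 56 bases before the start of Cltb, 182 bases before that of Magi3 and 62 bases before that of Gnb1l. Cltb had a log2 fold change of -1.36 (adjusted p = 2.06e-05), Magi3 one of -1.04 (adjusted p = 0.000959) and Gnb1l one of -1.36 (adjusted p = 0.00278). A match of letters is a description and not a binding site, and most genes called lower have no such match in the window. By the same search, the AP-1 letters TGANTCA were in 9.0% of promoters of genes called higher and 5.76% of those called lower, against 5.85% of all tested and 7.81% of all promoters. The TCF/LEF letters CTTTGAT were in 2.86% of the promoters of higher and 2.49% of those of lower genes (2.78% of all tested, 3.73% of all promoters). The ETS letters CCGGAAG were in 11.3% of the promoters of higher and 8.83% of those of lower genes, both below the 15% of all tested (8.86% of all promoters). None of the 4 motifs contains another.

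Epithelial immune genes held some of the largest rises outside the cornified envelope. All 11 tested genes of the Skint family, immunoglobulin-like proteins made by keratinocytes and known for their part in selecting epidermal gamma delta T cells, were called higher, with log2 fold changes from 1.43 to 8.43 and a median of 5.62. Skint9 was counted at 41.9, 34.4, 12.6, 26.4 and 27.4 CPM in treated libraries 1 to 5 and at 0.306, 0, 0.237, 0.456 and 0.605 CPM in the Ki67-positive libraries. Every treated library lay above every Ki67-positive one, and at the gap between the groups the lowest treated value was 20.9 times the highest Ki67-positive one (log2 change 6.42 ± 0.57, adjusted p = 3.48e-07). Skint8, which was present in the untreated nests as well, rose (50.4 to 113 against 10.5 to 17.4 CPM, log2 change 2.52 ± 0.24, adjusted p = 8.23e-07). Skint5 and Skint10 were almost absent from the untreated nests, with 2 and 1 counts in all Ki67-positive libraries together against 909 and 573 counts after vismodegib. The ratio was 408 for Skint5 (95% interval 113 to 3377) and 515 for Skint10 (lower bound 92.03), where the interval covers counting error only. Skint1 to Skint4, Skint6, Skint7 and Skint11 were also called. Near-identical family members may share reads, so the split between single Skint genes is uncertain. With a minimum count of 50 in place of 10, fewer Skint genes were tested and 7 were called higher. In the butyrophilin-like remainder of the class Cd276, a costimulatory ligand, was called lower, a call lost in 13 of the 15 fits that left out 1 library.

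Il33, an alarmin of the interleukin 1 family that barrier epithelia store in the nucleus, had the second largest rise, after Skint5, among the genes named for the size of their rise. It was counted at 54.8, 94.6, 43.02, 62.9 and 76.7 CPM in treated libraries 1 to 5 and at 0, 0, 0.711, 0.683 and 0 CPM in the Ki67-positive ones. The groups were far apart in all 5 libraries (log2 change 7.57 ± 0.65, adjusted p = 4.23e-07), and the Ki67-negative nests, at 0.141 to 2.09 CPM, were also below every treated library. Of 44 tested interleukins and their receptors, 19 were higher, with a class median log2 fold change of 1.11. They included Il7, a lymphocyte growth factor (19.7 to 56.1 against 1.54 to 8.87 CPM, log2 change 3.13 ± 0.44, adjusted p = 4.87e-05). Il22ra2, the soluble decoy receptor of interleukin 22, was at 17.96 to 49.7 against 0 to 2.76 CPM (log2 change 5.15 ± 0.67, adjusted p = 2.56e-05). Il1f5, the antagonist of the interleukin 36 receptor, was at 28.1 to 39.7 against 7.26 to 12.02 CPM, and the agonists it opposes, Il1f6, Il1f8 and Il1f9, were called higher as well. Il1rl2, which encodes the receptor for that group, was called lower together with Il31ra, but 9 of the 15 fits that left out 1 library lost at least 1 of these calls. Il20ra had 3 counts in the Ki67-positive libraries and 383 in the treated ones, a ratio of 115 (95% interval 39.0 to 559, counting error only).

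Of 36 tested chemokine and chemokine receptor genes 12 were higher, with a median of 0.84. Ackr4, a scavenging receptor that clears chemokines of the CCR7 and CCR9 axes, stood at 204, 252.5, 201, 175 and 199.6 CPM in treated libraries 1 to 5 and at 23.6, 18.9, 26.6, 27.9 and 28.8 CPM in the Ki67-positive ones. No library of one group reached the other (log2 change 3.03 ± 0.26, adjusted p = 2.49e-07). Ccl27a, the skin-homing chemokine of keratinocytes, was measured within a narrow band of 22.5 to 23.4 CPM after vismodegib and at 0.911 to 4.03 CPM in the Ki67-positive nests (log2 change 3.47 ± 0.41, adjusted p = 8.95e-06). Ccr4, carried by skin-homing T cells, was at 5.72 to 16.9 against 0.118 to 1.60 CPM (log2 change 4.39 ± 0.68, adjusted p = 1.11e-04). Ccl17 and Ccl22, its ligands, were also called higher. Cxcl12 and Cxcl1 were called lower, and without Ki67-positive library 1 the count of lower genes was 1. With a minimum count of 50, 6 chemokine genes were higher. T cell and NK cell markers moved with Ccr4 in part: 6 of 10 tested markers were higher, with summed levels of 165.6 to 252.8 CPM against 125.4 to 234.4 CPM, and their part in these results was not tested.

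All 8 tested MHC class II genes, of 11 listed, were called higher, with a median of 2.46. H2-Aa, a class II chain that presents peptides to helper T cells, was at 409, 232, 403, 253 and 536 CPM in the treated libraries and 64.3, 17.8, 11.5, 36.7 and 86.9 CPM in the Ki67-positive ones, without overlap (log2 change 3.08 ± 0.53, adjusted p = 6.03e-04). Cd74, the invariant chain, overlapped in its ranges, since treated library 4, at 221.7 CPM, lay just below Ki67-positive library 5, at 223.7 CPM (log2 change 2.73 ± 0.57, adjusted p = 0.00294). H2-Eb1 was at 3.515 CPM in its lowest treated library, with a median of 185.5 CPM over the 5, and at 21.28 to 48.17 CPM in the Ki67-positive libraries. Langerhans and dendritic cell markers moved with this class: Cd207, which encodes langerin and defines Langerhans cells, was at 23.78 to 43.15 CPM after vismodegib and 0.119 to 6.25 CPM in the Ki67-positive nests. The part of these cells in the class II result was not tested. Of 27 MHC class I genes, which nearly all cells express, 7 were higher and 1 lower, so that 29.6% were called, against 26.0% of all genes tested. The lower one was Tap2, whose call was lost in 6 of the 15 fits that left out 1 library. Among the higher ones were B2m (1064 to 1857 against 774 to 956 CPM, log2 change 0.77 ± 0.17, adjusted p = 0.00242) and H2-K1 (log2 change 0.85 ± 0.17, adjusted p = 0.00124). Among 38 tested interferon-stimulated genes, 8 (21.1%, against 12.6% of all genes tested) were higher, Ifi27 first by p-value (log2 change 1.11 ± 0.17, adjusted p = 9.51e-05). The count was 3 without treated library 3 and 5 without treated library 1 or 5 or Ki67-positive library 1, 3 or 4.

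In the TNF superfamily Tnfrsf19, also called Troy, is a receptor of hair follicle and other epithelial progenitors. It stood at 209, 247, 195, 129.9 and 202 CPM in the treated libraries and at 15.2, 8.98, 24.3, 16.4 and 16.5 CPM in the Ki67-positive ones (log2 change 3.59 ± 0.26, adjusted p = 4.64e-08). The lowest treated value was 5.35 times the highest Ki67-positive one. In the ectodysplasin pathway, which patterns hair and sweat glands, members moved in opposite directions. The adaptor Edaradd rose (log2 change 1.75 ± 0.25, adjusted p = 6.11e-05) and Eda2r was called higher, while the receptor Edar was called lower. In all, 7 of 39 TNF family genes were higher and 4 lower, so that 28.2% were called, against 26.0% of all genes tested. The other lower ones were Traf4, Tnfrsf10b and Tnfrsf11b. Antimicrobial and pattern recognition genes counted 11 higher and 2 lower of 56, so that 23.2% were called, against 26.0% of all genes tested. Defb6, a beta-defensin, was at 709, 134, 944, 651 and 1096 CPM against 153, 50.02, 57.2, 67.7 and 131 CPM (log2 change 2.95 ± 0.60, adjusted p = 0.00237); treated library 2 was the lowest of its group and lay within the Ki67-positive range. Pglyrp4, a peptidoglycan recognition protein, was at 8.48 to 31.3 against 0.160 to 0.474 CPM. The count of higher genes was 19 without Ki67-negative library 5, 17 with the 10 libraries alone and 18 by DESeq2. Saa3, an acute phase protein induced in inflamed tissue, went the other way, with 3 counts in the treated libraries and 509 in the Ki67-positive ones, a ratio of 0.00530 (95% interval 0.00109 to 0.0156, counting error only). Its call was lost by limma-voom, and its Ki67-positive values ran from 1.19 to 49.5 CPM. Chil3 was the other member called lower. The count of lower genes was 1 in 6 of the 15 fits that left out 1 library.

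**Figure D4:**
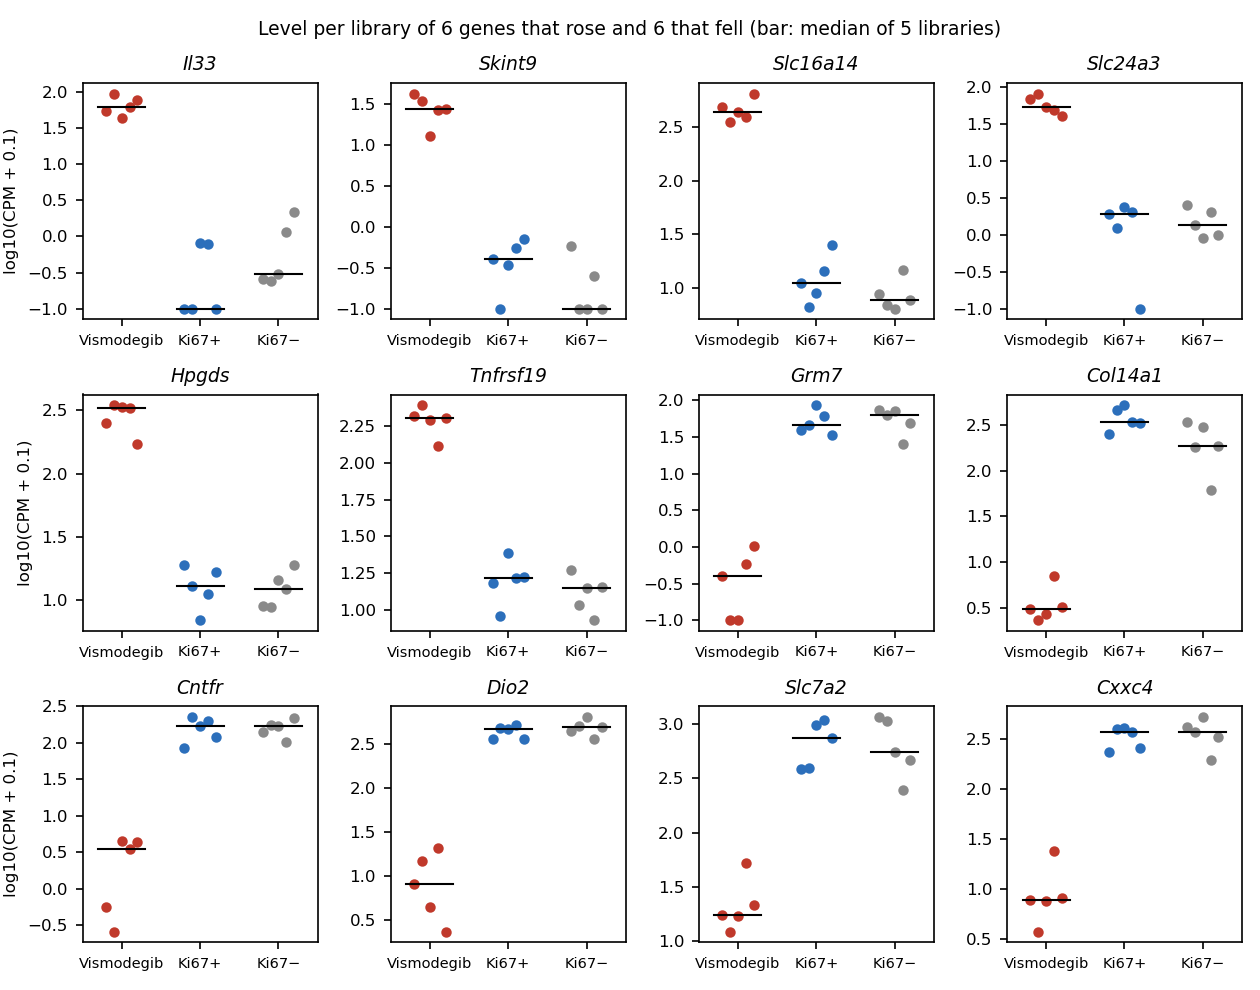
Level of 6 genes that rose and 6 that fell, as log10(CPM + 0.1), with 1 point per library and a bar at the median of each group of 5 libraries. In every panel the 5 treated libraries lie wholly above or wholly below the 5 Ki67-positive ones, and the Ki67-negative libraries lie near the latter. For the genes named for the size of their change, this separation was a condition of being named.

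Genes of the lipid barrier were often higher. Of 42 tested genes of ceramide and barrier lipid synthesis, 25 were higher and 3 lower, with a median log2 fold change of 1.26. Sptlc3, a subunit of serine palmitoyltransferase, which starts sphingolipid synthesis, was at 72.95, 48.1, 61.6, 44.4 and 55.9 CPM after vismodegib and at 3.37, 2.73, 3.91, 3.53 and 6.25 CPM in the Ki67-positive nests. Its groups did not overlap (log2 change 3.85 ± 0.38, adjusted p = 1.12e-06). Cers6, a ceramide synthase, rose (211 to 247 against 43.9 to 102 CPM, log2 change 1.501 ± 0.18, adjusted p = 8.19e-06). The epidermal lipase Lipm was at 43.8 to 67.9 against 4.65 to 9.95 CPM (log2 change 2.86 ± 0.32, adjusted p = 4.12e-06). The class also held the lipid transporter Abca12, the epidermal lipoxygenases Alox12b and Aloxe3, Cers3, Nipal4 and Pnpla1, all called higher. The 3 members that fell were Cers2 and the sphingomyelin synthases Sgms1 and Sgms2, which turn ceramide into sphingomyelin. Sgms2 was at 20.2 to 38.5 against 71.98 to 141 CPM (log2 change -2.06 ± 0.25, adjusted p = 1.16e-05). Markers of suprabasal epidermis, listed above, moved the same way as this class and as the junction, protease and transcription factor classes that follow, and their part in those results was not tested.

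Desmosome genes, which rivet keratinocytes to one another, counted 12 higher of 19, with a median of 0.78. Dsp, the plakin that ties desmosomes to keratin, was named for its rise in CPM, at 4231, 3656, 4638, 3560 and 4696 CPM against 1780, 1497, 1797, 1772 and 1402 CPM. The lowest treated library was 1.98 times the highest Ki67-positive one (log2 change 1.33 ± 0.15, adjusted p = 3.87e-06). Periplakin, Ppl, rose by 1.60 ± 0.15 on the log2 scale, and desmoglein Dsg1a by 1.94 ± 0.26 on the log2 scale. Perp, a desmosomal membrane protein that is also a p53 target, was at 2594 to 5268 against 919 to 1742 CPM (log2 change 1.29 ± 0.24, adjusted p = 7.11e-04). Dsg4, a desmoglein of the hair shaft, was called lower, and that call was lost without Ki67-positive library 3, with a minimum count of 50 and with the 10 libraries alone. Tight junction genes counted 10 higher and 3 lower of 25. The higher ones included Cldn1 and Cldn4, Tjp1 to Tjp3 and the cytoplasmic linker Cgn (13.2 to 21.5 against 2.72 to 5.66 CPM, log2 change 2.17 ± 0.31, adjusted p = 5.73e-05). The lower ones were Cldn10, Ildr1 and the junctional adhesion molecule F11r (94.2 to 134.9 against 246 to 289.9 CPM, log2 change -1.28 ± 0.23, adjusted p = 3.98e-04). Cdh1, E-cadherin, rose (1133 to 1426 against 486 to 611 CPM, log2 change 1.19 ± 0.13, adjusted p = 3.32e-06). Cdh3, P-cadherin, fell (104.6 to 152 against 162 to 359 CPM, log2 change -1.02 ± 0.21, adjusted p = 0.00119).

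Proteases of the barrier and their inhibitors were both among the genes that rose. Among kallikreins and membrane serine proteases, 9 of 34 were higher, including Klk5, Klk7, Klk8, Klk10 and Klk11, which cleave desmosomes in the cornified layer. Klk11 was at 17.9 to 40.8 against 4.50 to 12.9 CPM (log2 change 1.81 ± 0.35, adjusted p = 7.71e-04). Tmprss11f, a membrane serine protease, was at 9.94 to 30.1 against 0 to 1.41 CPM (log2 change 4.76 ± 0.72, adjusted p = 1.01e-04). The 4 lower genes were Prss12, Prss22, Prss33 and Prss35. Spink5, the inhibitor of those kallikreins, stood at 426, 169.7, 359.6, 157 and 321 CPM against 23.6, 6.25, 4.62, 13.8 and 3.02 CPM (log2 change 4.79 ± 0.71, adjusted p = 1.91e-04). Its values varied among treated libraries, and each still lay far above the Ki67-positive nests. Cst6, a cystatin of the cornification pathway, was more uneven, at 363, 18.3, 574, 190 and 671 CPM against 13.6, 10.7, 22.6, 22.1 and 7.86 CPM, so that treated library 2 lay within the Ki67-positive range (log2 change 4.54 ± 0.79, adjusted p = 7.62e-04). Among 31 tested serpins 11 were higher and 5 lower, with a median of 1.15 (18 and 8 by DESeq2). Serpinb7 had 2 counts in the Ki67-positive libraries and 456 in the treated ones, a ratio of 205 (95% interval 56.4 to 1697, counting error only). Serpine2, an extracellular inhibitor of thrombin and plasminogen activators, fell (3.75 to 9.70 against 15.1 to 58.99 CPM, log2 change -2.71 ± 0.35, adjusted p = 2.31e-05). Its target Plat, tissue plasminogen activator, fell as well (4.41 to 11.4 against 25.6 to 57.4 CPM, log2 change -2.22 ± 0.31, adjusted p = 4.69e-05). Casp14, a caspase that acts in cornification, rose (log2 change 2.85 ± 0.64, adjusted p = 0.00459).

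Transcription factors of epidermal differentiation counted 14 higher and 2 lower of 31, with a median of 0.62. Pou2f3, a POU factor of suprabasal keratinocytes, was among the genes at the smallest adjusted p-value, at 178, 177, 161, 126 and 224 CPM after vismodegib and 22.7, 19.6, 24.3, 20.1 and 14.3 CPM in the Ki67-positive nests. The lowest treated value was 5.19 times the highest Ki67-positive one (log2 change 3.10 ± 0.19, adjusted p = 1.90e-08). Zfp750, Klf4, Grhl1, Grhl3, Ovol1 and Gata3, regulators of late differentiation, were also higher. Klf4 was at 80.2 to 145 against 29.4 to 51.6 CPM. Prdm1, or Blimp1, which in skin acts in differentiated keratinocytes and sebaceous and follicle cells, went against the class and fell (69.5 to 174 against 426 to 584 CPM, log2 change -2.05 ± 0.22, adjusted p = 2.27e-06). Grhl2 was the other member called lower, and without Ki67-negative library 4 there were 4 lower. Kruppel-like and Sp factors counted 8 higher of 19, with Klf3 first (445 to 625 against 164 to 247 CPM, log2 change 1.495 ± 0.17, adjusted p = 4.11e-06). Sox21, a regulator of hair and epidermal differentiation, stood at 133, 114, 122, 103 and 189.8 CPM against 5.36, 0.962, 7.70, 2.96 and 6.85 CPM (log2 change 4.79 ± 0.49, adjusted p = 3.77e-06). With Sox7 it was called higher in a class where 7 of 12 tested Sox factors fell.

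Enzymes of eicosanoid, retinoid and xenobiotic metabolism were higher more often than lower. Hpgds, the haematopoietic type of prostaglandin D synthase, was at 250.2, 348, 339, 329.7 and 173 CPM in the treated libraries and 18.98, 12.8, 6.87, 11.2 and 16.5 CPM in the Ki67-positive ones. The lowest treated library was 9.11 times the highest Ki67-positive one (log2 change 4.45 ± 0.30, adjusted p = 3.87e-08). Ptgs1, the constitutive cyclooxygenase that feeds it, rose as well (66.2 to 103 against 4.33 to 24.2 CPM, log2 change 3.13 ± 0.48, adjusted p = 1.74e-04). So did Alox5 (log2 change 2.60 ± 0.40, adjusted p = 1.14e-04). The secreted phospholipase Pla2g3 fell (2.61 to 11.03 against 45.01 to 106 CPM, log2 change -3.33 ± 0.32, adjusted p = 7.61e-07), and the lipocalin-type synthase Ptgds was called lower. In the class of 36 genes, 13 were higher and 6 lower, the latter 3 without treated library 5. Of 31 cytochrome P450 genes 11 were higher, with a median of 0.77, among them Cyp4f37 (11.98 to 15.6 against 0 to 0.765 CPM, log2 change 6.19 ± 0.80, adjusted p = 1.93e-05) and Cyp27a1, which oxidises sterols (log2 change 1.68 ± 0.28, adjusted p = 2.22e-04). The lower ones were Cyp27b1, the enzyme that activates vitamin D, Cyp2d22 and Cyp2s1.

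In retinoid metabolism 10 of 31 genes were higher (6 without treated library 1 and with a minimum count of 50). Sdr16c5, a retinol dehydrogenase of epidermis, was at 126, 21.9, 66.5, 60.2 and 86.7 CPM against 6.12, 4.33, 7.82, 8.43 and 17.5 CPM, with treated library 1 the highest and library 2 the lowest but still above all untreated values (log2 change 3.04 ± 0.45, adjusted p = 1.04e-04). Rdh9 (log2 change 2.62 ± 0.43, adjusted p = 2.19e-04) and Rdh12 (log2 change 2.15 ± 0.45, adjusted p = 0.00204), dehydrogenases of the same step, rose with it, and so did the binding protein Crabp2 and the retinol receptor Stra6. Aldh1a2, which makes retinoic acid, and the receptors Rara (32.2 to 70.9 against 77.2 to 141 CPM, log2 change -1.04 ± 0.22, adjusted p = 0.00166) and Rxrg were lower. Of 95 glutathione, aldehyde and conjugation enzymes 28 were higher and 6 lower, with a median of 0.56. Mt4, the metallothionein of stratified epithelia, was at 6.12 to 16.1 against 0 to 0.474 CPM (log2 change 5.92 ± 0.65, adjusted p = 1.55e-05). Gstm1, a glutathione transferase, was at 77.2 to 155 against 29.4 to 50.7 CPM (log2 change 1.54 ± 0.22, adjusted p = 5.14e-05). Fatty acid genes counted 14 higher of 60, with the acyl-CoA synthetases Acsl1 (81.9 to 171 against 13.03 to 26 CPM, log2 change 2.79 ± 0.28, adjusted p = 1.52e-06) and Acsbg1 (log2 change 2.56 ± 0.27, adjusted p = 2.27e-06) first. The desaturases Fads1, Fads2 and Scd2 were lower, with Lpin2 and Srebf2. Without Ki67-positive library 2, 3 fatty acid genes were lower. Apoe, an apolipoprotein that keratinocytes secrete, was named for the size of its rise in CPM, at 3230, 1552, 2336, 1451 and 2809 CPM against 800.5, 817, 726, 931 and 759.8 CPM (log2 change 1.496 ± 0.23, adjusted p = 9.32e-05).

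Many genes of the cytoplasmic ribosome and of respiration were higher. Of 82 tested cytoplasmic ribosomal protein genes 49 were higher, with a median log2 fold change of 0.84, and of 0.65 once the trend with gene length was removed. Rpl32 was at 501, 494, 679.9, 727 and 574 CPM in the treated libraries and 259, 172, 266, 251 and 255 CPM in the Ki67-positive ones, each treated library above each Ki67-positive one (log2 change 1.30 ± 0.16, adjusted p = 1.12e-05). Many ribosomal protein genes have processed pseudogenes, which can take some of the reads. Mitochondrial ribosomal protein genes did not stand apart, with 9 of 77 higher (11.7%, against 12.6% of all genes tested) and a median of 0.31. Of 88 nuclear genes for respiratory complex subunits 37 were higher, with a median of 0.57, and of 0.43 once the trend with gene length was removed. The count was 23 without treated library 3 and 21 without Ki67-positive library 2. Ndufb9, a subunit of complex I, was at 84 to 149 against 39.3 to 67.7 CPM (log2 change 1.05 ± 0.23, adjusted p = 0.00212). Among the genes of the mitochondrial genome, 6 of 7 tested protein genes were higher, with a median of 1.02. CYTB, the cytochrome b of complex III, was at 5170, 4944, 5408, 6500 and 5256 CPM against 3303, 1885, 2364, 2441 and 3450 CPM (log2 change 1.02 ± 0.24, adjusted p = 0.00372). Treated library 4 was the highest for it and for COX1, a subunit of cytochrome oxidase, at 3967, 4094, 4041, 6340 and 4131 CPM. These genes make up the mitochondrial share of the library given above, so that both describe one quantity. The lysosomal membrane proteins Lamp2 (795 to 1253 against 271 to 484 CPM, log2 change 1.24 ± 0.17, adjusted p = 3.07e-05) and Lamp1 (log2 change 0.64 ± 0.15, adjusted p = 0.00423) led 8 of 39 autophagy and lysosome genes that were higher. That count, 20.5% of the class against 12.6% of all genes tested, was 5 without treated library 4 or 5 or Ki67-positive library 2 or 5.

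Many genes of the extracellular matrix fell. Of 39 tested collagen chains 23 were lower, with a median log2 fold change of -1.43, and 3 were higher, namely Col17a1, Col4a6 and Col8a1. Col14a1, a collagen that decorates fibrils, was at 2.92, 2.21, 2.57, 6.91 and 3.13 CPM in treated libraries 1 to 5 and at 254, 456, 519, 342 and 334 CPM in the Ki67-positive ones. Even against the highest treated library, library 4, the lowest Ki67-positive one was 36.8 times as high (log2 change -6.73 ± 0.49, adjusted p = 1.87e-07). Col27a1, a cartilage-type fibrillar collagen, fell (3.65 to 6.32 against 77.3 to 158 CPM, log2 change -4.64 ± 0.30, adjusted p = 1.90e-08). Col2a1, of cartilage, fell (0.121 to 1.26 against 22.1 to 72.7 CPM, log2 change -5.64 ± 0.64, adjusted p = 8.66e-06). Of 6 type IV chains, which form the basement membrane network, 4 fell and Col4a6 rose. The interstitial chains Col1a1, Col1a2 and Col3a1 were not called. Fibroblast markers, in which these chains are included, summed to 680.1 to 4242 CPM after vismodegib and 2254 to 7380 CPM in the Ki67-positive nests, with 6 of 15 lower and Dcn and Lum not called; their part in the matrix results was not tested. Col17a1, the transmembrane collagen of the hemidesmosome, rose (1336 to 2351 against 553 to 1312 CPM, log2 change 1.08 ± 0.20, adjusted p = 4.91e-04).

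Other basement membrane genes were lower as well. Of 67 matrix glycoproteins 28 were lower, with a median of -0.94. Fras1, which with Frem1 and Frem2 anchors epidermis to dermis, was at 23.5, 18.1, 39.8, 54.5 and 44.2 CPM against 304, 559.7, 484, 370.3 and 465 CPM (log2 change -3.59 ± 0.27, adjusted p = 1.17e-07). Frem2 fell as well (199 to 503 against 629 to 1411 CPM, log2 change -1.59 ± 0.25, adjusted p = 1.33e-04), and Frem1 was called lower. Npnt, nephronectin, a basement membrane ligand of hair follicle bulge cells, was at 11.8 to 23.2 against 81.8 to 211 CPM (log2 change -2.98 ± 0.26, adjusted p = 2.93e-07). Of 10 laminin chains 8 were lower, with a median of -1.23. Lamc1 was at 109 to 141 against 322 to 432 CPM (log2 change -1.56 ± 0.13, adjusted p = 2.53e-07) and Lama5 at 108 to 179.5 against 304 to 745 CPM (log2 change -1.67 ± 0.21, adjusted p = 2.06e-05). Integrins, the receptors of these proteins, were mixed, with 5 higher and 8 lower of 29. Itgb6, whose heterodimer releases active TGF-beta, fell (15.1 to 29.2 against 91.3 to 109 CPM, log2 change -2.24 ± 0.16, adjusted p = 4.64e-08). Itga6, a chain of the laminin receptor of basal keratinocytes, rose (507 to 585 against 282 to 398 CPM, log2 change 0.70 ± 0.12, adjusted p = 4.33e-04) and its partner Itgb4 was not called (179 to 376 against 258 to 599.6 CPM). The other integrins called higher were Itgav, Itgae, Itgax and Itgb2, the last 3 of them chains of leukocytes.

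Some proteoglycans and matrix proteases fell too. Vcan, the large proteoglycan of hair papilla and remodelling stroma, stood at 42.9, 17.5, 53.3, 188 and 43.2 CPM in the treated libraries and 993, 778, 753, 1355 and 1109 CPM in the Ki67-positive ones. Treated library 4 was the highest of its group, and the lowest Ki67-positive value was 4.01 times as high (log2 change -3.85 ± 0.56, adjusted p = 1.63e-04). Cspg4, or NG2, a proteoglycan of pericytes and some epithelial stem cells, was at 53.4 to 87 against 339.7 to 727 CPM (log2 change -2.72 ± 0.22, adjusted p = 1.87e-07). Mcam, an adhesion molecule of vessel walls, was at 8 to 17.5 against 108 to 177 CPM (log2 change -3.41 ± 0.22, adjusted p = 1.90e-08). Both are among the 5 pericyte markers called lower, with Acta2, Kcnj8 and Tagln, whereas Rgs5, Myh11 and Notch3 of the same list were not called. The part of pericytes in these results was not tested. Of 19 Adamts and Adamtsl genes, secreted proteases and related proteins of the matrix, 14 were lower, with a median of -1.94. Adamtsl1, at the same smallest adjusted p-value as Pou2f3, was at 11.5, 12.3, 14.7, 15.5 and 15.1 CPM against 166, 247, 119, 145 and 256 CPM (log2 change -3.75 ± 0.23, adjusted p = 1.90e-08). Mmp14, the membrane collagenase, fell (50.3 to 89.3 against 134 to 218 CPM, log2 change -1.42 ± 0.18, adjusted p = 1.56e-05), while Mmp9, Mmp12, Mmp25 and Mmp28 were called higher.

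Most of the cadherin-like genes that fell were clustered protocadherins, neural adhesion proteins encoded in tandem arrays. All 22 tested gamma protocadherins were lower, within -1.02 to -0.86 on the log2 scale, and 13 of 21 beta protocadherins were, with a median of -1.21; the 14 alpha protocadherins had a median of -0.54 and were not called. The gamma genes share constant exons, so their values are not independent of each other and the near identity of their fold changes is uncertain as 22 separate results. Pcdhgb1 was at 80.6 to 100.5 against 149 to 187 CPM (log2 change -0.92 ± 0.11, adjusted p = 1.37e-05). Outside the arrays, 4 of 31 cadherin genes were higher and 6 lower, against 12.6% and 13.4% of all genes tested. Their median was 0.04, near the -0.02 of all genes tested. Pcdh19, a protocadherin of the developing brain, rose, at 124, 60.2, 110.5, 139 and 157 CPM against 5.82, 0.802, 7.70, 5.70 and 12.5 CPM (log2 change 4.20 ± 0.49, adjusted p = 1.38e-05). The lowest treated value was 4.82 times the highest Ki67-positive one. Cdh13 and Celsr1 were also called higher.

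Several groups of genes best known from neurons were lower. Grm7, a metabotropic glutamate receptor, had the largest fall after Saa3 among the genes named for the size of their fall, at 0.307, 0, 0, 0.485 and 0.914 CPM in the treated libraries against 39.3, 46.7, 85.9, 61.96 and 33.9 CPM in the Ki67-positive ones. The lowest Ki67-positive library was 37.1 times the highest treated one (log2 change -7.24 ± 0.55, adjusted p = 1.24e-07), and the Ki67-negative nests held 25.4 to 74.3 CPM. The kainate receptors Grik3 (log2 change -2.64 ± 0.45, adjusted p = 2.48e-04) and Grik4 (0.154 to 8.51 against 26.9 to 35.9 CPM, log2 change -2.94 ± 0.49, adjusted p = 2.81e-04) fell as well, with Grik2, Grik5, Grin1, Gria3 and the GABA receptor Gabbr1. In all, 8 of 17 tested glutamate and GABA receptors were lower, with a median of -0.97. Grm4 was called higher, a call lost without treated library 1, 3 or 5 or Ki67-positive library 2, 4 or 5. Of 67 immunoglobulin-like and synaptic adhesion genes 25 were lower, with a median of -0.61. Tenm2, a teneurin of synapses, fell, at 345, 449.8, 362, 383 and 373 CPM against 948, 1539, 990, 906 and 1145 CPM (log2 change -1.53 ± 0.15, adjusted p = 1.02e-06). Nlgn2, a neuroligin of inhibitory synapses, was at 16.6 to 21.1 against 65.98 to 143 CPM (log2 change -2.20 ± 0.21, adjusted p = 7.41e-07). L1cam, an adhesion protein of axons and some carcinomas, was an exception and rose (93.2 to 151 against 21.2 to 39.6 CPM, log2 change 1.99 ± 0.20, adjusted p = 1.23e-06). Map1b, a neuronal microtubule protein, fell (86.2 to 108 against 238 to 469.5 CPM, log2 change -1.90 ± 0.17, adjusted p = 3.72e-07). Of the nerve and Schwann cell markers, 6 were tested, and Mbp, a myelin protein, was called higher (17.1 to 23.01 against 3.85 to 8.73 CPM, log2 change 1.95, adjusted p = 2.92e-04) and Ncmap lower (0.121 to 1.10 against 2.61 to 7.26 CPM, log2 change -2.82, adjusted p = 6.49e-04). The sums of the list overlapped, at 34.09 to 50.03 CPM against 30.01 to 71.07 CPM, and Nefl was at 0.

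**Figure D5:**
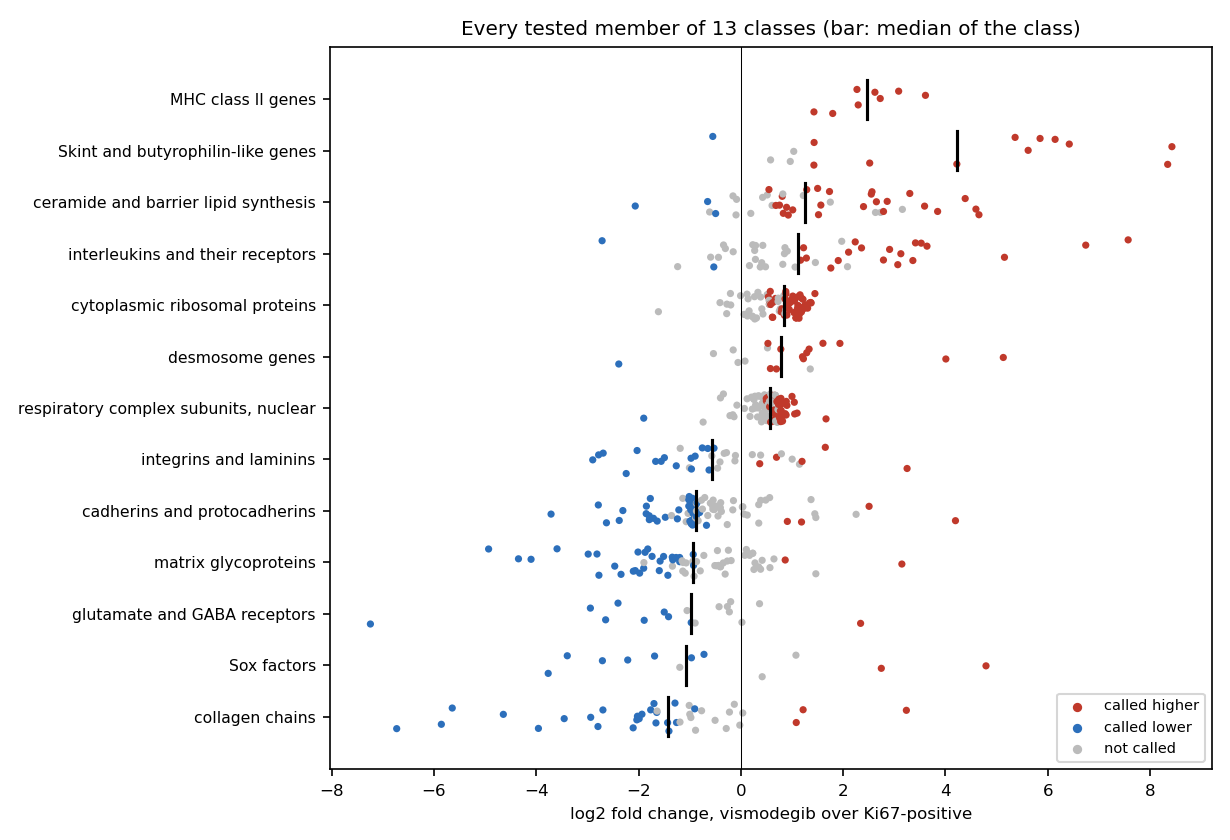
Log2 fold change of every tested member in 13 functional classes, 1 point per gene, called and uncalled genes in different colours. MHC class II and Skint genes and most ribosomal and respiratory genes lie above 0, and collagen, Sox, glutamate receptor and matrix members spread below 0.

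Several patterning transcription factors of hair follicle and limb fell. Vax1, a homeobox gene of ventral forebrain and eye, had 2 counts in the treated libraries together and 307 in the Ki67-positive ones, a ratio of 0.00585 (95% interval 0.000706 to 0.0213, counting error only). Lhx2, which maintains follicle stem cells, was at 41.2, 63.4, 101, 92.96 and 51.7 CPM in the treated libraries and 367, 613, 817, 716 and 543 CPM in the Ki67-positive ones. The lowest Ki67-positive library was 3.63 times the highest treated one (log2 change -3.12 ± 0.30, adjusted p = 1.39e-06). Lmx1b, a dorsal limb factor, fell (0 to 1.78 against 13.01 to 31.4 CPM, log2 change -5.00 ± 0.64, adjusted p = 2.39e-05). In all, 18 of 50 homeobox genes outside the Hox clusters were lower and 6 higher. The Hox genes called lower were Hoxc4, Hoxc5, Hoxc6, Hoxc8, Hoxc9, Hoxc12 and Hoxc13, 7 of 8 tested genes of that cluster, with a median of -1.56. The medians were -0.05 for 8 Hoxa, 0.17 for 8 Hoxb and -0.17 for 4 Hoxd genes. Hoxc13, a regulator of hair keratins, was at 3.07, 0.473, 2.57, 5.33 and 7.18 CPM against 36.6, 34.3, 127, 91.7 and 57.4 CPM (log2 change -4.20 ± 0.55, adjusted p = 4.39e-05). Hoxc6 was at 82.9 to 124 against 213 to 351 CPM (log2 change -1.46 ± 0.19, adjusted p = 2.39e-05). Hoxc12 had 1 count against 92.

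Sox, T-box and bHLH factors added to this group. Sox13 was at 14.4, 20.6, 44.2, 38.9 and 18.8 CPM in the treated nests and 198, 449.6, 472, 451 and 304 CPM in the Ki67-positive ones, without overlap (log2 change -3.77 ± 0.35, adjusted p = 1.51e-06). Sox9, a regulator of hair follicle stem cells, fell (333 to 478 against 603 to 1079 CPM, log2 change -0.97 ± 0.15, adjusted p = 1.53e-04). Sox4 (log2 change -1.69 ± 0.24, adjusted p = 4.87e-05), Sox5, Sox11, Sox12 and Sox18 were also lower, giving a class median of -1.08. Tbx1, a T-box factor that keeps hair follicle stem cells, had values of 0.768, 0, 0.888, 0.848 and 0.392 CPM against 8.57, 18.1, 33.05, 28.5 and 26 CPM (log2 change -5.21 ± 0.54, adjusted p = 1.76e-06). Tbx15, Tbx18 and Tbx3 were lower too. The call for Tbx3 was lost with a term for sex and without treated library 2, 3 or 5 or Ki67-positive library 2 or 4. Ebf1 (5.68 to 19.03 against 33.5 to 63.9 CPM, log2 change -2.43 ± 0.30, adjusted p = 1.26e-05), Ebf4 and the Notch target Heyl (log2 change -3.39 ± 0.48, adjusted p = 7.08e-05) were among 11 of 42 bHLH-related genes that were lower (7 without Ki67-positive library 4). In the other direction, the forkhead factor Foxn1, which marks the start of keratinocyte differentiation, rose (17.1 to 38.9 against 1.41 to 6.51 CPM, log2 change 3.11 ± 0.51, adjusted p = 1.94e-04). Foxq1, a factor of the hair medulla (log2 change 2.61 ± 0.38, adjusted p = 5.83e-05), and Foxn3 (log2 change 1.34 ± 0.17, adjusted p = 2.19e-05) rose too.

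Several receptor tyrosine kinases and feedback inhibitors of ERK signalling were lower. Fgfr1 stood at 160.2, 129, 161, 194 and 154 CPM in treated libraries 1 to 5 and at 521, 1068, 370.4, 699 and 693 CPM in the Ki67-positive ones (log2 change -2.07 ± 0.25, adjusted p = 1.11e-05). Fgfr3 (log2 change -0.88 ± 0.19, adjusted p = 0.00181) and the decoy receptor Fgfrl1 (log2 change -1.97 ± 0.34, adjusted p = 3.40e-04) fell with it. Fgfr4 was called lower, but not in 17 of 24 alternative settings, among them leaving out any treated library or Ki67-positive library 1, 2 or 4. Fgfr3 overlapped between the groups, at 35.5 to 64 against 63.1 to 128 CPM. Dusp6, a phosphatase of ERK that ERK itself induces, fell, at 10.6, 8.04, 13.03, 11.4 and 13.97 CPM against 229, 201, 143, 180.1 and 56.2 CPM. The lowest Ki67-positive library, library 5, was 4.03 times the highest treated one (log2 change -3.82 ± 0.45, adjusted p = 1.74e-05). Spry4 (0.768 to 2.76 against 8.46 to 26.5 CPM, log2 change -3.32 ± 0.44, adjusted p = 2.61e-05) and Spry1 (log2 change -1.69 ± 0.25, adjusted p = 7.22e-05), inhibitors induced by FGF signalling, fell as well, and 13 of 31 ERK feedback genes were lower. The ETS factors Etv5 (5.09 to 10.96 against 51.2 to 107 CPM, log2 change -3.22 ± 0.24, adjusted p = 6.42e-08) and Etv4 (0.630 to 5.33 against 31.2 to 106 CPM, log2 change -4.09 ± 0.44, adjusted p = 4.62e-06), targets of the same pathway, fell too. Of 20 immediate early genes 6 were lower, with a median of -0.65. Egr1 was at 158, 184, 211, 229.9 and 121 CPM against 496, 1415, 880.1, 401 and 292 CPM (log2 change -1.95 ± 0.39, adjusted p = 0.00177). Atf3 was called higher, a call lost without Ki67-positive library 4 or 5 and with a minimum count of 50. Btc, a ligand of the EGF receptor, was at 12.4, 20.5, 8.98, 0.970 and 7.83 CPM against 0.765, 0.641, 1.19, 0.911 and 0.202 CPM, overlapping through treated library 4 (log2 change 3.69 ± 0.65, adjusted p = 3.46e-04). Ereg, Nrg4 and Egfr itself were the other ErbB genes called higher. The class count of 4 of 18 fell to 2 without treated library 1, 3 or 5 or Ki67-positive library 1, 2, 4 or 5.

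Wnt genes changed in both directions, 13 higher and 13 lower of 55. Axin2, a direct target and inhibitor of Wnt signalling, rose, at 111, 168, 152, 104.8 and 141 CPM against 21.4, 30.8, 26.4, 36.1 and 30.8 CPM (log2 change 2.22 ± 0.24, adjusted p = 3.24e-06). The lowest treated library was 2.90 times the highest Ki67-positive one. Sostdc1, which binds BMP and Wnt receptors, rose as well (556 to 905 against 198 to 296 CPM, log2 change 1.78 ± 0.20, adjusted p = 3.77e-06), with the ligands Wnt3, Wnt3a, Wnt4, Wnt10a and Wnt16 and the receptors Fzd6 and Fzd10. Trabd2b, a protease that inactivates Wnt ligands, fell (2.84 to 9.33 against 65.9 to 172 CPM, log2 change -3.67 ± 0.33, adjusted p = 4.74e-07), as did Dkk3 (log2 change -1.78 ± 0.18, adjusted p = 1.49e-06) and, among others, Wnt5a, Wif1, Sfrp1, Lgr4, Lrp5 and Lrp6. With a minimum count of 50, 8 Wnt genes were higher. In the BMP and TGF-beta class 19 of 60 were lower and 7 higher. The signal transducer Smad3 fell (17.5 to 43.5 against 71.1 to 102 CPM, log2 change -1.48 ± 0.19, adjusted p = 2.05e-05). The secreted matrix protein Tgfbi rose (272 to 411 against 92.1 to 144 CPM, log2 change 1.39 ± 0.14, adjusted p = 1.72e-06). Fst, follistatin, which traps activin, rose too (log2 change 1.26 ± 0.26, adjusted p = 0.00136). Notch genes counted 4 higher and 5 lower of 27, so that 33.3% were called, against 26.0% of all genes tested. The lower ones were 3 when any of treated libraries 1, 3, 4 and 5 or Ki67-positive libraries 2, 3 and 4 was left out.

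Among other growth factor systems, Cntfr, the receptor of ciliary neurotrophic factor, fell, at 0.461, 0.158, 4.44, 3.39 and 4.31 CPM against 83.1, 226, 168, 195 and 120.5 CPM. Treated libraries 1 and 2 were lower than the other 3, and the lowest Ki67-positive library was 18.7 times the highest treated one (log2 change -5.88 ± 0.54, adjusted p = 1.70e-06). The receptor Ret fell (0.315 to 4.05 against 4.65 to 30.8 CPM, log2 change -3.00 ± 0.54, adjusted p = 4.80e-04). The neurotrophin receptor Ntrk2 rose (40.5 to 106 against 2.08 to 16.6 CPM, log2 change 2.93 ± 0.46, adjusted p = 1.92e-04) with Ptn, pleiotrophin (log2 change 1.56 ± 0.26, adjusted p = 2.43e-04), and Gdnf. Ephb1, an ephrin receptor, was at 0.461, 0.946, 0.197, 0.364 and 0 CPM against 22.5, 44.2, 41.6, 49.5 and 12.1 CPM (log2 change -6.47 ± 0.73, adjusted p = 9.34e-06), and 6 of 18 Eph genes were lower. The ligand Efnb2 rose (log2 change 0.95 ± 0.18, adjusted p = 8.84e-04) and Epha1 was called higher. In the insulin-like growth factor system 7 of 17 were lower, among them the receptor Igf1r (201 to 402 against 439 to 551 CPM, log2 change -0.83 ± 0.16, adjusted p = 6.68e-04). Another was the protease Pappa, which frees the ligand from its binding proteins (36.1 to 83.4 against 186 to 342 CPM, log2 change -2.16 ± 0.31, adjusted p = 8.32e-05). Pdgfa, which epithelium makes for the underlying fibroblasts, fell (65.4 to 125 against 279.8 to 400.2 CPM, log2 change -1.90 ± 0.21, adjusted p = 5.22e-06). The co-receptor Nrp2 fell too (log2 change -2.86 ± 0.39, adjusted p = 7.41e-05). The guidance ligand Sema3b, which binds neuropilins, was at 2.15 to 2.99 against 14.3 to 36.2 CPM (log2 change -3.47 ± 0.30, adjusted p = 2.38e-07). Kit, the stem cell factor receptor of melanocytes, was lower together with Pmel, Dct, Tyr, Tyrp1 and Slc45a2. Melanocyte marker sums were 130.4 to 471.2 CPM against 389.6 to 1680 CPM, and the part of melanocytes in the result for Kit was not tested.

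Some transporters and channels also changed. Slc16a14, a member of the monocarboxylate transporter family, was at 486, 353, 442, 391 and 651 CPM in treated libraries 1 to 5 and at 11.02, 6.41, 8.77, 14.1 and 24.99 CPM in the Ki67-positive ones. The lowest treated library was 14.1 times the highest Ki67-positive one (log2 change 5.17 ± 0.35, adjusted p = 4.64e-08). Slc24a3, a potassium-dependent sodium and calcium exchanger, was at 68.7, 81.2, 53.2, 49.3 and 40.6 CPM against 1.84, 1.12, 2.25, 1.94 and 0 CPM (log2 change 5.27 ± 0.43, adjusted p = 1.72e-07). Slc6a2, the noradrenaline transporter, rose as well (129 to 202 against 15 to 31.1 CPM, log2 change 3.08 ± 0.25, adjusted p = 1.66e-07). In the other direction the cationic amino acid transporter Slc7a2 was at 17.5, 12.1, 16.97, 52.97 and 21.7 CPM against 388, 397, 975.0, 1081 and 746 CPM (log2 change -4.88 ± 0.56, adjusted p = 2.01e-05). The zinc and iron importer Slc39a14 fell (23.8 to 31.9 against 185 to 247 CPM, log2 change -2.95 ± 0.17, adjusted p = 1.90e-08). Of 267 tested solute carriers 50 were higher and 37 lower, so that 32.6% were called, against 26.0% of all genes tested. Dio2, the deiodinase that activates thyroid hormone, fell, at 7.99, 14.8, 4.34, 20.6 and 2.22 CPM against 365, 485, 468, 523 and 365 CPM (log2 change -5.47 ± 0.47, adjusted p = 1.02e-06). The lowest Ki67-positive library was 17.7 times the highest treated one. The thyroid hormone receptor Thrb rose (35.7 to 67.8 against 7.54 to 25.9 CPM, log2 change 1.48 ± 0.26, adjusted p = 3.53e-04). Other nuclear receptors that rose included Nr3c2, Esr1, Ppara and Rora.

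Of 23 TRP channels 7 were lower. Trpv4, a calcium channel opened by warmth and stretch, was at 6.76, 2.68, 4.44, 4.36 and 6.53 CPM against 55.1, 136, 46.8, 52.9 and 77.2 CPM (log2 change -3.88 ± 0.35, adjusted p = 5.69e-07). The potassium channels Kcnj2 (66.7 to 127 against 19.4 to 27.01 CPM, log2 change 2.12 ± 0.25, adjusted p = 8.88e-06) and Kcnj16 (log2 change 5.34 ± 0.75, adjusted p = 4.74e-05), inward rectifiers, rose, and Kcng3 fell (log2 change -3.39 ± 0.42, adjusted p = 1.52e-05). The calcium channel subunit Cacna1g fell (3.15 to 16.9 against 54.96 to 86.5 CPM, log2 change -3.01 ± 0.31, adjusted p = 1.72e-06), while Stim1, the sensor of calcium stores, rose (log2 change 1.14 ± 0.14, adjusted p = 8.19e-06). Clca3a2, of a family of secreted regulators of chloride channels, was named for the size of its rise in CPM, at 2635, 2152, 1684, 2042 and 2252 CPM against 248, 168, 59.1, 58.3 and 143 CPM (log2 change 3.99 ± 0.51, adjusted p = 5.27e-05). Among gap junction genes Gja1, the most widespread connexin of skin, fell (30.9 to 55.8 against 204 to 428 CPM, log2 change -2.65 ± 0.27, adjusted p = 1.76e-06). Gjb5, a connexin of differentiating keratinocytes, was called higher. Aqp3, the glycerol and water channel of epidermis, rose (34.4 to 84.5 against 1.42 to 14.8 CPM, log2 change 3.10 ± 0.49, adjusted p = 1.85e-04). Aqp1, a channel of vessels, fell with overlap (5.52 to 18.7 against 13.9 to 56.1 CPM, log2 change -1.93 ± 0.36, adjusted p = 6.15e-04). Among G protein-coupled receptors the serotonin receptor Htr2c appeared, with 209 counts in the treated libraries and 1 in the Ki67-positive ones, a ratio of 188 (95% interval 33.3 to 7452, counting error only).

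Several genes of the primary cilium, the organelle in which Smoothened acts, were lower. Of 42 tested genes of intraflagellar transport and the cilium 16 were lower (10 without treated library 5), with a median of -0.40, and Ift20 was higher. Ift81 was at 12.9, 16.6, 16.1, 20.9 and 13.3 CPM against 41.95, 57.6, 37.3, 38.04 and 35.9 CPM (log2 change -1.40 ± 0.21, adjusted p = 1.01e-04). Its groups did not overlap, nor did those of Ift57 (log2 change -1.40 ± 0.21, adjusted p = 1.02e-04) and Wdr35 (log2 change -1.08 ± 0.17, adjusted p = 1.59e-04), which belong to the same transport trains. Kif7, the kinesin at the cilium tip that regulates GLI proteins, fell (6.30 to 19.4 against 43.5 to 94.9 CPM, log2 change -2.09 ± 0.33, adjusted p = 1.40e-04). Dync2h1, the motor of retrograde transport, fell too (log2 change -0.93 ± 0.15, adjusted p = 2.10e-04). Actin-associated genes were mixed, 17 lower and 12 higher of 61. Synpo, an actin-bundling protein, was at 27.03 to 59.1 against 224 to 408 CPM (log2 change -2.73 ± 0.21, adjusted p = 1.03e-07). Synpo2 was at 7.83 to 31.03 against 124 to 249 CPM (log2 change -3.69 ± 0.36, adjusted p = 1.92e-06). Acta2, Tagln and Myl9, which also mark smooth muscle, were among the lower genes, as given for pericytes above.

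Few genes of the cell cycle were called. The 40 tested mitosis genes had a median log2 fold change of -0.44, against -0.02 over all genes tested. Of these genes 7.5% were called, against 26.0% of all genes tested. None was called higher, and 3 were called lower. They were the survivin gene Birc5, at 14.4, 18.1, 16.6, 11.9 and 11.6 CPM against 38.1, 19.1, 18.5, 32.2 and 56.03 CPM (log2 change -1.17 ± 0.33, adjusted p = 0.0142), and Bub1 (log2 change -0.98 ± 0.30, adjusted p = 0.0211) and Cenpe (log2 change -0.74 ± 0.24, adjusted p = 0.0287). Ki67-positive library 5 was the highest of its group for each. The count was 1 without treated library 5 and 6 without Ki67-positive library 3. Leaving out Ki67-positive library 1, or the fifth of the Ki67-negative libraries, gave 5, and without Ki67-positive library 5 these 3 calls were lost. It was 5 with the 10 libraries alone and 8 with a term for sex. Of 40 S phase genes Mcm10 (3.47 to 8.98 against 8.53 to 16.5 CPM, log2 change -1.24 ± 0.35, adjusted p = 0.0128) and E2f7 were lower and E2f2 higher. The share of S phase genes called was also 7.5%. The lower count ran from 1 to 4 in the 8 fits that left out treated library 1, 4 or 5, the fifth Ki67-negative library or Ki67-positive library 2, 3, 4 or 5. The call for E2f2 was lost without treated library 1 or 3 or any Ki67-positive library. Mcm10 and Cenpe overlapped between the groups. Among inhibitors of the cycle, Cdkn2b, or p15, was at 9.37, 5.04, 8.39, 10.2 and 7.31 CPM against 46.7, 74.4, 67.99, 51.5 and 23.8 CPM (log2 change -2.71 ± 0.27, adjusted p = 1.12e-06). Cdkn2a, of the same locus, had 3 counts against 73 (ratio 0.0369, 95% interval 0.00744 to 0.112, counting error only). Ccnd2, a D-type cyclin that is also listed as a Hedgehog target, went up (302 to 539 against 73.3 to 194 CPM, log2 change 1.73 ± 0.27, adjusted p = 1.21e-04). Cdkn1a and Rbl2 were higher, and Cdkn1c and Ccnd3 lower. Without treated library 1, 3 or 5 or Ki67-positive library 1, 4 or 5, 2 genes of the list were lower.

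Several smaller groups complete the account. Of 27 imprinted genes 8 were lower (5 without treated library 3), with a median of -0.62. Slc38a4, an amino acid transporter, was at 9.68, 15.1, 37.99, 62.2 and 18.9 CPM against 380.4, 488, 359.9, 489 and 254 CPM (log2 change -3.77 ± 0.42, adjusted p = 1.16e-05), and Peg3 at 14.2 to 27.8 against 91.7 to 252.5 CPM (log2 change -3.08 ± 0.37, adjusted p = 1.92e-05). Ascl2 was higher (5.22 to 16.9 against 0.605 to 1.68 CPM, log2 change 2.88 ± 0.60, adjusted p = 0.00167). In the circadian clock 6 genes were higher and 4 lower of 20. Hlf (43.1 to 183 against 10.5 to 26.9 CPM, log2 change 2.74 ± 0.32, adjusted p = 9.73e-06) and Nr1d1 (77.3 to 257 against 40.9 to 82.6 CPM, log2 change 1.32 ± 0.30, adjusted p = 0.00335), outputs of the clock, rose. For Nr1d1, treated library 3 lay below Ki67-positive library 2. The labels give no time of day at collection. The higher count was 3 without treated library 5 or Ki67-positive library 3 or 4, and the lower count 2 without treated library 1, 3 or 4 or Ki67-positive library 1, 2 or 4. Among chromatin genes Scmh1, a Polycomb protein, fell (99.05 to 161 against 584 to 1042 CPM, log2 change -2.54 ± 0.20, adjusted p = 1.39e-07). Pcgf5, of another Polycomb complex, rose (46.4 to 60.8 against 14.7 to 21.2 CPM, log2 change 1.60 ± 0.15, adjusted p = 6.88e-07). The inducible heat shock gene Hspa1a was higher (48.99 to 53.2 against 14.7 to 30.7 CPM, log2 change 1.36 ± 0.26, adjusted p = 7.00e-04). The co-chaperone Bag3 was lower (45.1 to 72.97 against 96.6 to 212 CPM, log2 change -1.46 ± 0.22, adjusted p = 8.05e-05). Cxxc4, an inhibitor of Wnt signalling that binds Dishevelled, was named for the size of its fall, at 7.68, 3.62, 7.40, 23.6 and 8.09 CPM against 235, 400.5, 406, 377 and 261 CPM (log2 change -5.04 ± 0.44, adjusted p = 1.02e-06). Treated library 4 was the highest of its group, and the lowest Ki67-positive library was 9.96 times as high. Pkhd1l1 (2.05 to 4.61 against 120.5 to 438 CPM, log2 change -6.49 ± 0.49, adjusted p = 2.65e-07), a large membrane protein of the fibrocystin family, and Lmo3 (log2 change -6.55 ± 0.61, adjusted p = 5.46e-07), a transcriptional cofactor, fell without overlap between the groups.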

How the data were processed

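RNA from laser-cut tumour nests was measured by RNA-seq in 15 libraries, 5 per group. Per the file headers, the authors deposited for each library a count of uniquely aligned reads per gene model, with no normalization, and an RPKM value adjusted by size factors; reads were aligned with GSNAP to GRCm38, per the submitters' processing notes. Neither strand use nor annotation release is given in the sources used here, so antisense and overlapping genes cannot be told apart. The counts were used for every test, and the RPKM column only to check them: counts followed from RPKM by constants per gene and library within 2.26%.

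Of 36528 gene identifiers listed, 31049 (85.0%) matched a symbol; the rest held 2.26% to 3.93% of a library. Genes were filtered with a minimum count of 10 (total 15), and 17282 were tested with edgeR 4.0.16 in R 4.3.3 (TMM factors 0.937 to 1.05, quasi-likelihood F test, robust, all 15 libraries, 12 residual degrees of freedom, common coefficient of variation 0.348). P-values were adjusted by Benjamini-Hochberg over all genes tested and called below 0.05; ± is the standard error, and CPM are counts over library size times the TMM factor. Per-library totals of 4929869 to 10328822 counts in the 10 libraries compared set the precision. Low-count ratios have exact 95% intervals that cover counting error only. Shares of libraries were compared by exact permutation tests.

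The genes named come from 4 groups. The first is the 15 largest rises and 15 largest falls among called genes with an average log2 CPM of at least 3 whose libraries did not overlap. The second is the 10 largest rises and 10 largest falls in mean CPM among called genes without overlap; both leave out the Hedgehog, cornified envelope, keratin and S100 classes, predicted genes, Xist and genes of the Y chromosome. The third is up to 4 called genes of smallest adjusted p in each class, all at an average of 1 or more on the log2 CPM scale, and the last the nest markers. Others are named as members of a count, or with 3 counts or fewer in a group, after their values were seen. The comparison, the 88 classes (5036 genes) and the marker lists (164 of 168 entries matched) were chosen with earlier results of these data known. Promoters are RefSeq's, on GRCm38.p6, for 12241 tested genes. Alternatives were other size factors (RLE, upper quartile), other count filters, the 10 libraries alone, a term for sex, leaving out each library, DESeq2 1.42.0, limma-voom 3.58.1 and, chosen after seeing the data, removal of the trend with gene length. The edgeR step was tested on simulated data. Results for some genes and for 1 class are not reported here.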

Additional observations from a re-analysis of the deposited data

Results flagged for a closer look

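In groups of 5 libraries, a library was singled out when its distance to the nearest other library, over the range of the group on the log2(CPM + 1) scale, passed Dixon's critical value of 0.71. Of 110 groups tested, 10 had such a library, and chance alone gives about 1 in 20 where values vary freely. Where all other libraries of a group are at 0, as for Skint5 and Saa3, a flag is certain. That rate does not apply there.

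Treated library 4 was the library apart in 5 of them. It was low for Lypd5, at 10.3 CPM against 26.2 to 36.4 CPM in the other treated libraries, and for Nccrp1, at 15.27 CPM against 49.99 to 70.3 CPM. It was high for the collagen gene Col14a1, at 6.909 CPM against 2.21 to 3.13 CPM, for the mitochondrial gene COX1, at 6340.0 CPM against 3967 to 4131 CPM, and for the mitochondrial share of counts, at 2.776% against 2.18% to 2.29%.

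The other flags were single values. Treated library 1 had Saa3 at 0.4607 CPM and treated library 3 had Slc22a3 at 1.974 CPM, against 0 to 0.158 CPM in the remaining treated libraries for the latter. Ki67-positive library 3 had Col2a1 at 72.73 CPM, against 22.1 to 26.4 CPM. Ki67-positive library 2 was low for the mitochondrial gene ND1, at 1414.0 CPM against 1936 to 2159 CPM. Ki67-positive library 5 held the Skint5 reads of its group, at 0.4031 CPM. Each of the 9 genes was named on condition that the groups did not overlap. Its library apart therefore had to lie outside the range of the opposite group, which says nothing about the flag. For the mitochondrial share, which was not chosen that way, the library apart also lay outside the range of the opposite group.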

How the results depend on the processing

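No paired analysis was possible because the labels carry no replicate numbers. The counts of genes called, 2186 higher and 2311 lower, kept within 1.5 times of these values in all 24 alternative settings, and no gene was called in the opposite direction. Leaving out each library in turn gave 1831 to 2624 higher and 1935 to 2595 lower. DESeq2 called 2733 higher and 2633 lower, limma-voom 2391 and 2289, RLE factors 2286 and 2235, upper quartile factors 1982 and 2534, and no count filter 2162 and 2221. The higher minimum count (50) gave 1851 and 1942, the 10 libraries alone gave 2546 and 2342, and removal of the length trend, added after seeing the data, gave 2363 and 2122. The share of calls that were higher was 48.6%, and ran to 43.9% with upper quartile factors, under which the median log2 fold change was -0.07 against -0.02, and to 52.7% with the length trend removed. Similar totals need not be the same genes. Without Ki67-positive library 2, 1733 of the 2186 higher and 1859 of the 2311 lower calls were kept, the fewest of any setting. Of 362 named genes called, 336 were called in every setting that tested them. Named genes were chosen mainly for large changes, groups without overlap or small adjusted p, which favours calls that hold. Of 176 class counts, 83 moved by more than 1.5 times in at least 1 setting. Among the 50 genes named for the size of their change, the call for Saa3 was lost, by limma-voom only. Genes with 1 to 3 counts in a group are limited by depth and are given as ratios with counting intervals.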
